A study of Mus musculus with 50 samples.

Results

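The ducts of the mouse mammary gland are built of a pair of epithelial layers. Luminal cells line the lumen, carry the hormone receptors and make milk. Basal cells lie outside them on the basement membrane, contract under oxytocin to move the milk and include cells that can rebuild a whole gland after transplantation. Keratins 5 and 14 and smooth muscle actin are the usual markers of the basal layer, and keratins 8 and 18 those of the luminal layer.

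Gene expression was compared between basal and luminal cells sorted from wild type (WT) mice, with 1 Affymetrix Mouse Gene 1.0 ST array per RNA sample and 2 arrays per cell type. These 4 arrays are taken from a series of 50, and they are the samples whose labels give sorted cells and the WT genotype. All mice were 10 weeks old by the labels and of the CB6F1 background. Cells negative for the lineage antigens CD31, CD45 and TER119 were gated as CD29hiCD24+ for basal cells and CD29loCD24+ for luminal cells. The titles of the luminal samples repeat the basal gate, while their tissue labels and descriptions give luminal cells with low CD29, and they are taken as luminal here. The other 4 sorted arrays, 2 of basal and 2 of luminal cells, come from 10-week-old DN-Clim mice of the same background, which express a dominant-negative form of the LIM domain cofactors called Clims from the keratin 14 promoter, active in basal cells. They share the estimate of the spread and are compared with WT at the end. By the methods, 2 WT and 2 DN-Clim littermates served as replicates, so both cell types of a genotype came from the same mice, although no source says that a replicate number marks the same mouse in both. The fit leaves out this pairing, and values with the replicate number as a block are given where they change a call.

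The deposited values are linear intensities per probe set in arbitrary units. An intensity of 150 is the minimum that the study set for an expressed gene in sorted cells, and genes that reached it on at least 1 sorted array were tested, with 1 probe set per gene. A gene under it in 1 cell type could be tested only through the other, so counts within gene lists depend in part on this filter. Differences are basal minus luminal on the log2 scale, given with the standard error (SE) of the fit, and means of intensities are given ± SD of 2 arrays. A gene was called at an adjusted p under 0.05 in limma. Where all arrays of 1 cell type were under 150, the fold is a lower bound, computed with values under 150 set to 150.

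Of 12472 genes tested, 4217 were called, which is 33.8%. Basal cells had the higher level for 1934 of them (15.5% of all genes tested) and luminal cells for 2283 (18.3%). Counts of calls within gene lists are to be read against these shares. Without basal array 1 or basal array 2 the count higher in luminal cells was 1414 or 1352. The median difference over all genes was -0.09. Medians of gene lists are given as fitted and, as values under 150 have no order, also with these set to 150 (floored). At least a 2-fold difference was seen for 1404 of the genes higher in basal cells and for 1184 of those higher in luminal cells. Both basal arrays were above both luminal arrays for 3663 of the genes tested, and the reverse held for 4911. With 2 arrays per cell type such a separation is common, also among genes that were not called. For 806 of the genes called higher in basal cells both luminal arrays were under 150, and for 615 of those called higher in luminal cells both basal arrays were. Arrays of the same cell type correlated over all genes at 0.961 (basal) and 0.944 (luminal), and a basal with a luminal array at 0.567 to 0.598, where genes are not independent replicates. In sorted bulk samples a lower level in all cells and a smaller share of cells with the transcript cannot be told apart.

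**Figure D1:**
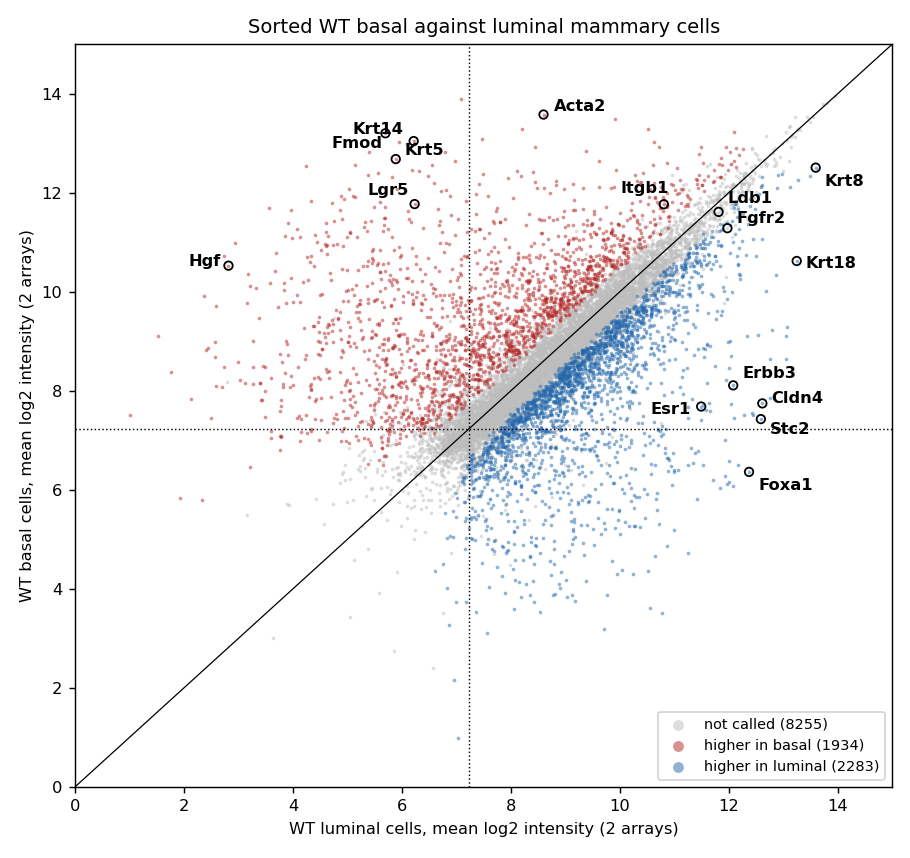
Each point is 1 gene, with the mean log2 intensity of the 2 WT luminal arrays on the x axis and that of the 2 WT basal arrays on the y axis. The solid line marks equal levels and the dotted lines the minimum intensity of 150. Genes higher in basal cells (red, 1934) reach into the area left of the vertical dotted line, where luminal cells are under the minimum, and Krt14, Krt5, Fmod and Hgf lie there. Genes higher in luminal cells (blue, 2283) reach below the horizontal line, where Foxa1 lies.

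The cell type markers separated the samples as labelled. Krt5 measured 5794 and 7389 in basal cells and 43 and 81.2 in luminal cells, and Krt14 measured 7985 and 8876 in basal cells and 57 and 96.6 in luminal cells. Acta2, smooth muscle actin, measured 12103 and 12297 in basal cells and 298 and 502 in luminal cells. For these 3 basal markers every basal array was above every luminal array, and the basal level was at least 43.6-fold, at least 56.1-fold and 31.5-fold higher (adjusted p = 4.15e-05, 6.64e-05 and 0.000536). Krt8 measured 5058 and 6665 in basal cells and 11756 and 12947 in luminal cells and Krt18 1098 and 2251 in basal cells and 9272 and 10135 in luminal cells, so both luminal keratins were also well above the minimum in basal cells. The luminal over basal fold was 2.12 for Krt8 (adjusted p = 0.00123) and 6.17 for Krt18 (adjusted p = 0.0063). The gate itself used integrin beta 1 (CD29, Itgb1) and CD24 (Cd24a), so their levels are no finding. Itgb1 measured 3478 ± 93.8 against 1793 ± 186 (basal against luminal) and Cd24a 3244 ± 408 against 5719 ± 904, and the call of Cd24a was lost without basal array 1, basal array 2 or luminal array 2, where the adjusted p reached 0.149.

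The 15 largest differences in favour of basal cells, ranked with values under 150 set to 150, included genes of the cytoskeleton, the matrix and secreted inhibitors. Gprin3, whose product is linked to neurite outgrowth, measured 11916 and 19579 in basal cells and 129 and 141 in luminal cells, at least 102-fold higher. Fmod, fibromodulin of the collagen matrix, measured 8742 and 10092 in basal cells and 40.9 and 65.6 in luminal cells (at least 62.6-fold higher), and Id4, an inhibitor of helix-loop-helix factors, 9192 and 7473 in basal cells and 61.5 and 62.3 in luminal cells (at least 55.3-fold higher). Only called genes whose basal and luminal arrays did not overlap were ranked, in both directions. For Gprin3 basal array 2 was well above basal array 1. Krt17, the matrix proteins Postn and Bgn, the smooth muscle genes Myl9, Cnn1, Tagln and Myh11, the membrane protein gene Tmem200a, the sodium channel Scn7a and the activin inhibitor Fst (follistatin) complete the 15 with Krt14 and Krt5. Their bounds ran from at least 37.7-fold for Fst to at least 56.1-fold for Krt14, and Tmem200a, the only one of the 15 with a luminal array over 150, was 48.9-fold higher.

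In favour of luminal cells the largest differences included secreted factors, channels and regulators of hormone response. Stc2, a secreted stanniocalcin, measured 195 and 151 in basal cells and 6127 and 6158 in luminal cells, 35.7-fold higher in luminal cells. Foxa1, the factor that opens chromatin for the estrogen receptor, measured 111 and 60.4 in basal cells and 5506 and 5076 in luminal cells (at least 35.2-fold higher), and Cited1, a coactivator of that receptor, 253 and 129.6 in basal cells and 5737 and 5328 in luminal cells (30.5-fold higher). Areg, the epidermal growth factor receptor ligand amphiregulin, measured 134 and 45.3 in basal cells and 5649 and 2682 in luminal cells. Its luminal arrays differed from each other by more than a factor of 2. The tight junction gene Cldn4, the protease Tmprss2, the keratin Krt7, the water channel Aqp5, the secreted proteins Dmbt1 and Fgb (fibrinogen beta chain), the arginase Arg2, the angiotensin receptor Agtr1a, the surface mucin Podxl, and Mboat1 and Tlcd4 complete the 15. Fgb measured 58.5 and 82.8 in basal cells and 2948 and 5426 in luminal cells (adjusted p = 0.00012), and Agtr1a 174 and 52.4 in basal cells and 5400.5 and 3097 in luminal cells (adjusted p = 0.000812).

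**Figure D2:**
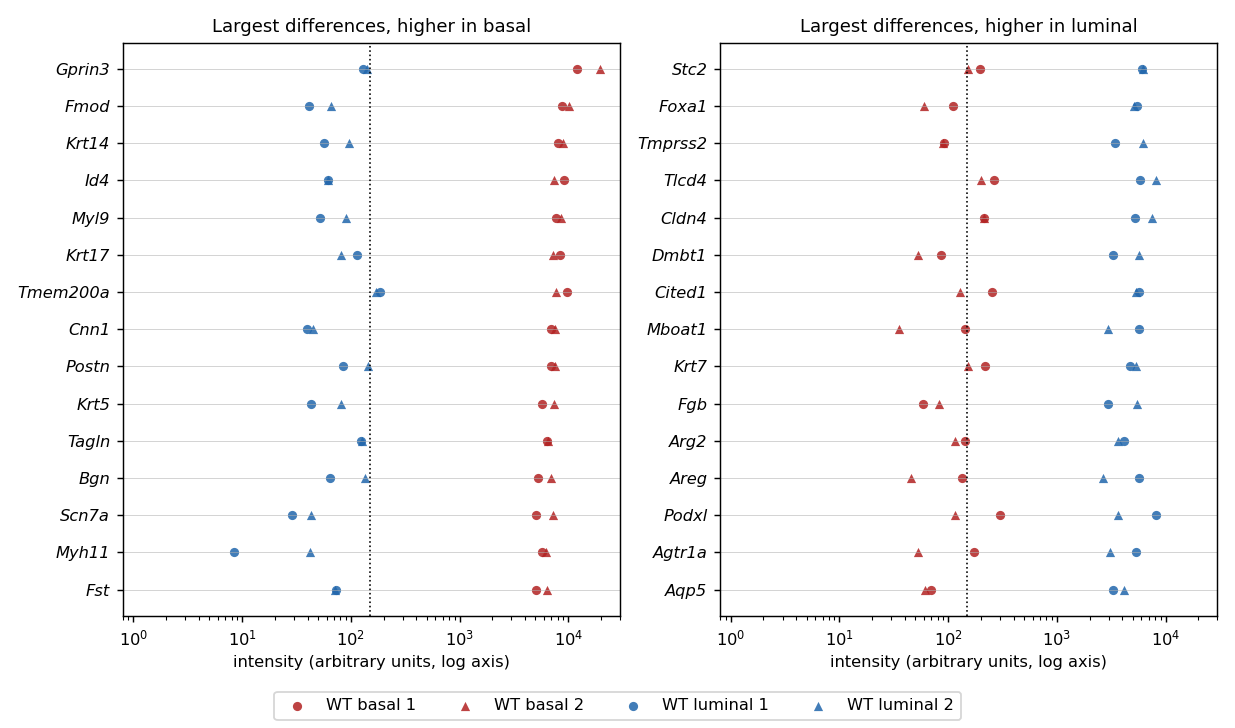
Intensity (log axis, arbitrary units) of the 15 genes with the largest difference in each direction, 1 point per WT array, basal in red and luminal in blue, circle for array 1 and triangle for array 2. The dotted line is the minimum of 150. Both panels are ranked by the difference with values under 150 set to 150, from Gprin3 and Stc2 downward. Genes whose basal and luminal arrays overlapped could not enter either panel.

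Among the keratins, all 4 of the basal layer that were tested were higher in basal cells and 4 of 5 simple epithelial keratins were higher in luminal cells. Krt15 measured 1942 and 1384 against 67.1 and 118 (basal against luminal arrays), and Krt17 8359.7 and 7252 against 115 and 81.8. Krt19, found in simple epithelia, measured 475 and 335 against 7943 and 8978, 21.2-fold higher in luminal cells. Krt23 is classed with the simple keratins but ran the other way, with 942 against 140.4 and a difference of 2.78 (adjusted p = 0.0022). Of 8 stratified or other keratins 1 was called, Krt6a, higher in luminal cells at 33.9 and 46.8 against 535 and 277 (at least 2.56-fold higher), a call lost without basal array 1, basal array 2 or luminal array 1, where the adjusted p reached 0.089.

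**Figure D3:**
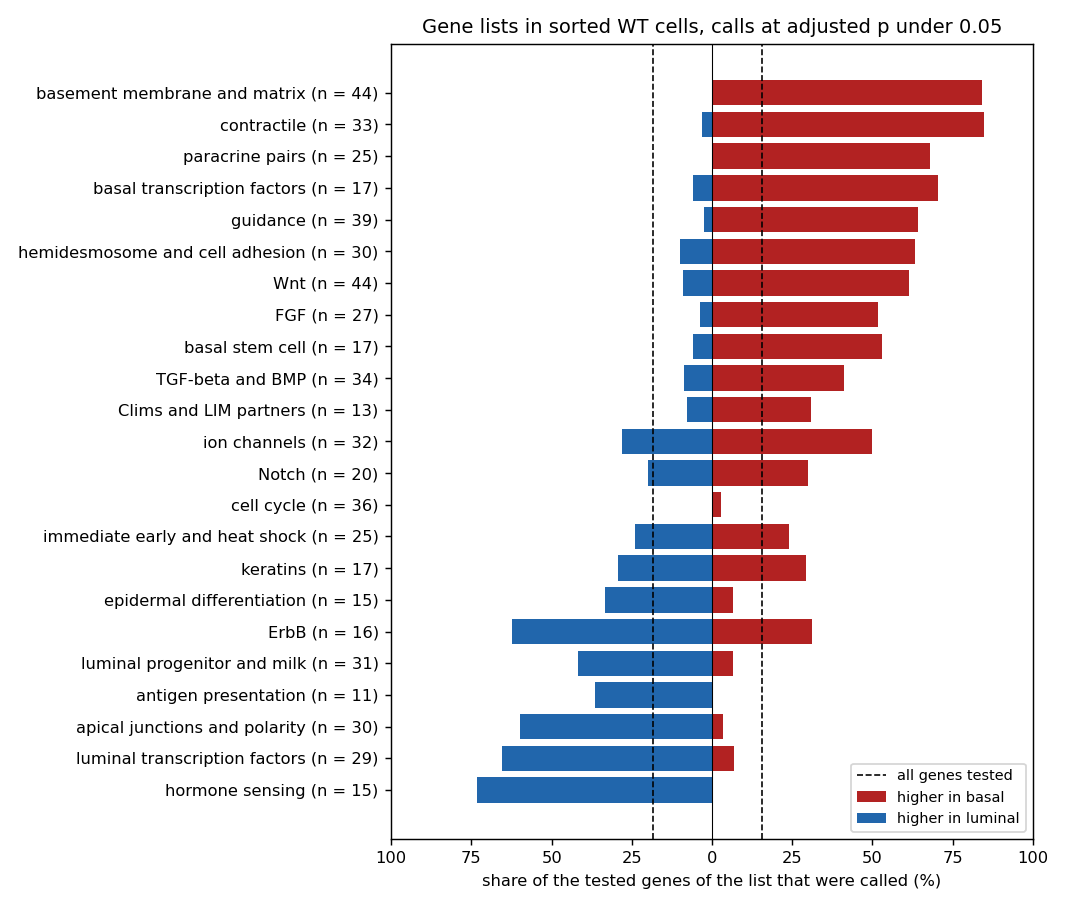
Share of the tested genes of each list that was called higher in WT basal cells (red, to the right) or higher in WT luminal cells (blue, to the left), for lists with at least 8 genes tested, whose number is given with the name. Dashed lines mark the shares over all genes tested, 15.5% and 18.3%. The matrix and contractile lists reach past 80% on the basal side, and the hormone-sensing list past 70% on the luminal side.

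Basal cells carried the smooth muscle programme of myoepithelium. Smooth muscle contraction depends on myosin motors, actin filaments and the calponin and caldesmon proteins bound to them, and serum response factor drives their genes through CArG boxes. Of 33 contractile genes tested, 28 were higher in basal cells and 1 in luminal cells, with a median difference of 3.90 (floored 2.55). All 9 actin, myosin and tropomyosin genes were higher in basal cells. Myh11, smooth muscle myosin heavy chain, measured 5755 and 6201 against 8.38 and 42. Mylk, the kinase that activates myosin, measured 4797 and 6051 against 53.3 and 41.4 (at least 35.9-fold higher), and calponin Cnn1 6979 and 7489.5 against 39.2 and 45 (at least 48.2-fold higher). The receptor and channel genes were higher as well, with 5346 against 181 for the oxytocin receptor Oxtr, 1713 against 6.76 for the potassium channel subunit Kcnmb1 and 422 against 18.9 for the calcium channel Cacna1c. Tpm1, Cnn2, Csrp1 and Vcl, which many cell types use, also passed the test, at 4839 against 1287, 4598 against 573, 9544 against 4379 and 4045 against 1855 (basal against luminal), with differences of 1.94, 3.03, 1.12 and 1.13.

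Of 5 regulators of this programme, 2 were higher in basal cells and 1 in luminal cells, and without basal array 1 or luminal array 1 the basal count was 1. Mef2c, a muscle transcription factor, measured 589 against 22.7 (at least 3.9-fold higher), and serum response factor Srf 1928 and 1943 against 746 and 1108 (difference 1.09 ± 0.24, a call lost without basal array 1, basal array 2 or luminal array 1, where the adjusted p reached 0.0607). Myocd, the smooth muscle coactivator of serum response factor, was near the minimum at 214 and 107 against 95.8 and 89.8 and was not called (adjusted p = 0.144), nor was Mrtfa at 672 against 489.6. Mrtfb, a related coactivator, was higher in luminal cells at 788 and 727 against 1256 and 1256 (difference -0.73 ± 0.15), and that call was lost without basal array 2, where the adjusted p reached 0.0581.

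The strict CArG box, searched without a mismatch, was present in 1.63% of the 32851 RefSeq promoters (GRCm38.p6, from 250 bases before to 50 after a gene's start) and in 1.65% of the 9924 tested genes with such a promoter. It was present in 2.98% of the 1475 such genes called higher in basal cells and in 0.928% of the 1832 called higher in luminal cells. Of 29 contractile genes with a promoter, 8 held one, namely Myl9, Cnn2, Vcl, Filip1l, Srf, Fhl1, Fhl2 and Myl6. A match is a description of these letters, and the box is its own reverse complement, so both strands are read at once. The promoters of 5 of the genes follow 5′ to 3′ on the gene's strand with the boxes in capitals, to show where the box lies in genes that were higher in basal cells. They lie at chr2:156775214-156775513 (plus strand) for Myl9, chr10:79988350-79988649 (plus strand) for Cnn2, chr14:20929148-20929447 (plus strand) for Vcl, chr16:57548992-57549291 (plus strand) for Filip1l and chr17:46556113-46556412 (minus strand) for Srf.
Myl9: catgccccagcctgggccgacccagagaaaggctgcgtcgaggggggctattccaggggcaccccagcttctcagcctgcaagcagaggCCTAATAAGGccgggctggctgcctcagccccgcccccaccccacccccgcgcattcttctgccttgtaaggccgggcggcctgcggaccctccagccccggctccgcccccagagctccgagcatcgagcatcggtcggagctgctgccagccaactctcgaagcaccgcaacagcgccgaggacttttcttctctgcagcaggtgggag
Cnn2: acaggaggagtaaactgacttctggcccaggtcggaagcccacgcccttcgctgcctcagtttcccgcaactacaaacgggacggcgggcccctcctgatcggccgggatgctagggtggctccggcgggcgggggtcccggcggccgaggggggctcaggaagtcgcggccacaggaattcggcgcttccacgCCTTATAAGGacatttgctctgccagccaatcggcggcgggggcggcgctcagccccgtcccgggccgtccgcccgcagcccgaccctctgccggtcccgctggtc
Vcl: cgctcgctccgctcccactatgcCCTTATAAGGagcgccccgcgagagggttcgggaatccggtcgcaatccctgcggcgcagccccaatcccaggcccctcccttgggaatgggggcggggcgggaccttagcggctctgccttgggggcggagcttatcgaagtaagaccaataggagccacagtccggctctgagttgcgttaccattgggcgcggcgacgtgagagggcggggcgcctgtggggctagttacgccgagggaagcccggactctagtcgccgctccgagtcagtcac
Filip1l: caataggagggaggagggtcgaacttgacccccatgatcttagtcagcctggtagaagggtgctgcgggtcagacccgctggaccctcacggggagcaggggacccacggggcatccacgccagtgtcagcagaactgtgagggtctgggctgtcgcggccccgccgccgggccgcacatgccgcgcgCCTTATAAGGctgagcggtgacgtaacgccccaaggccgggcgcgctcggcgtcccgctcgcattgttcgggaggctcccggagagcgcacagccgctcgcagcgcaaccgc
Srf: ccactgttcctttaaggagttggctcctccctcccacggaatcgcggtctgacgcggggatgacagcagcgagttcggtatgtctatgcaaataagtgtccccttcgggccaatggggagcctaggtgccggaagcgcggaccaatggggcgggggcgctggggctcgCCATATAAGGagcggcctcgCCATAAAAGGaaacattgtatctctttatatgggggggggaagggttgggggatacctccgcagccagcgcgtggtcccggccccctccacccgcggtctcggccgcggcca
Srf holds 2 boxes, which begin 82 and 62 bases before its start, and the single box of Myl9 begins 161 bases before. Myl9 was at least 54.1-fold higher in basal cells, and the differences of the other genes were 3.03 for Cnn2, 1.13 for Vcl, 1.86 for Filip1l (lost without basal array 2, where the adjusted p reached 0.0529) and 1.09 for Srf (lost without basal array 1, basal array 2 or luminal array 1, where the adjusted p reached 0.0607). Fhl1 was not called at 154 against 93.7. Myl6 was called at 7234 against 4164, and Fhl2 at 713 against 152, the latter lost without basal array 1, where the adjusted p reached 0.0576.

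Basal cells also carried a broad set of genes for the basement membrane and the matrix. Of 44 tested, 37 were higher in basal cells and 0 in luminal cells, with a median difference of 4.69 (floored 3.25), and without 1 array at a time the count was 36 or 37. The basement membrane genes included hemicentin Hmcn1 (4094 and 7420.5 against 82 and 76.3), laminin alpha 1 Lama1 (2617 against 51.6) and collagen IV alpha 1 Col4a1 (1546 against 53.7). Lama5, the laminin alpha chain of many epithelia, did not pass the test at 1281 against 1692. Among fibre and interstitial proteins, Sparc measured 9289 and 10630.0 against 376 and 231 and Postn 6882 and 7558 against 85.1 and 143. Of the proteases and inhibitors 10 of 12 were higher in basal cells, with 3385 and 7889 against 75.7 and 104 for the gelatinase Mmp2, 1581 against 20.2 for Adamts18 and 4383 against 365 for the inhibitor Timp3. Mmp14, which activates Mmp2, was at 1218 against 1195 and was not called.

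Markers of fibroblasts moved in the same direction as these matrix genes. The summed intensity of 18 fibroblast markers was 7868 and 10420 on the basal arrays and 3124 and 2525 on the luminal arrays, with 5 markers under 150 on all 4 arrays. Of 17 tested, 8 were higher in basal cells and 1 in luminal cells, and without basal array 2 the count higher in basal cells was 1 and without any of the other 3 arrays it was 3. Without basal array 2 or luminal array 1 the luminal count was 0. Decorin, Dcn, measured 3616 and 5198 against 1182 and 711, a call lost without basal array 2 or luminal array 2, where the adjusted p reached 0.091. Pdgfrb, shared with pericytes, measured 459 and 957 against 43.3 and 51.9 (adjusted p = 0.00114). Col1a1, Col3a1, Lum and Thy1, also on the list, were at 296 against 265, 272 against 206, 56.4 against 21.6 and 141 against 124 and did not pass the test. The part of fibroblasts in the matrix result was not tested.

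Of 30 cell adhesion genes tested, 19 were higher in basal cells and 3 in luminal cells, with a median difference of 1.26 (floored 1.05). Hemidesmosomes bind basal cells to the basement membrane through integrin alpha 6 beta 4 and collagen XVII. Col17a1 measured 3178 and 4379 against 22.1 and 41.8 (at least 24.9-fold higher in basal cells), the laminin chain genes Lama3 2649.7 and 2857 against 102 and 106 (at least 18.3-fold higher) and Lamb3 3135 and 3424 against 189 and 245 (15.2-fold higher). Integrins Itga6 and Itgb4 differed less, by 1.55 ± 0.16 and 1.03 ± 0.18, and Itga1 and Itga9 more, at 1188 against 18.5 and 1130.4 against 57.3. P-cadherin Cdh3 measured 3233 and 3499.8 against 87.7 and 30, while E-cadherin Cdh1 was higher in luminal cells at 2101 and 2045 against 4526 and 5179.6 (adjusted p = 0.00077). Of the desmosomal plakophilins, Pkp2 was higher in luminal cells at 42.3 and 28.4 against 790.0 and 811 and Pkp1 in basal cells at 1802 against 531, the latter lost without basal array 2 or luminal array 1, where the adjusted p reached 0.0681. Itgb6 was higher in luminal cells at 163 and 82.8 against 256 and 552, a call lost without basal array 2 or luminal array 2, where the adjusted p reached 0.12.

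Tight junctions seal the lumen between luminal cells. Of 14 tight junction genes, 10 were higher in luminal cells and 0 in basal cells, with a median difference of -3.44 (floored -2.07). Cldn4 measured 216 and 212 against 5197 and 7543, Cldn3 262 and 175 against 3638 and 2756 and Cldn8 57 and 145 against 2771 and 2132, all claudins, the strand-forming proteins. Occludin, Ocln, measured 66.7 and 74.2 against 1089.5 and 1225 (at least 7.7-fold higher). Cldn7 was 62.1 against 1640.2, a call lost without basal array 2 or luminal array 1, where the adjusted p reached 0.0716. The scaffold Tjp1 (ZO-1) and the adhesion protein F11r did not pass the test at 1644 ± 63 against 1635 ± 192 and 1877 ± 402 against 1906 ± 212, with differences of 0.01 ± 0.14 and -0.03 ± 0.18. Of 7 surface glycoproteins, 5 were higher in luminal cells, among them Muc1 at 82.4 and 51 against 1249 and 884 and Epcam at 1096 against 3776, and without basal array 2 the count was 3. Of 9 polarity genes 3 were higher in luminal cells, with Crb3, the apical Crumbs protein, at 67.4 against 417. Pard3 was higher in basal cells at 969 and 882 against 571 and 681, a call lost without basal array 1, basal array 2 or luminal array 1, where the adjusted p reached 0.144.

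Transcription factors known from basal cells followed that layer for 12 of 17 genes tested, with 1 the other way and a median difference of 2.86 (floored 1.98). Trp63, the p63 factor of stratified and basal epithelia, measured 2248 and 2291 against 21.4 and 20.9, and Snai2 (Slug) 2036 and 2982 against 13.2 and 21.2. Irx4, a homeobox gene, measured 2703 and 2654 against 18.5 and 12.1, and Tshz2 2449 and 2754 against 88.6 and 117. Egr2 was 25-fold higher at 3009 and 4379 against 109 and 192. The luminal means of these 5 factors ran from 15.3 for Irx4 to 151 for Egr2, around or under the minimum. Meis1, placed on the list, was instead higher in luminal cells at 359 and 402 against 1046 and 934 (adjusted p = 0.00195). Zeb1 and Zeb2, factors of mesenchymal cells, were at 82.5 against 66.4 and 103 against 51.6, with both means under the minimum, and were not called.

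Of 29 luminal transcription factors, 19 were higher in luminal cells and 2 in basal cells, with a median difference of -0.93. The estrogen receptor Esr1 measured 214 and 197 against 2934 and 2819.9 (14-fold higher), and the progesterone receptor Pgr 244 and 261 against 1812 and 2151 (7.83-fold higher). Elf5 and Ehf, factors of the secretory branch, measured 49.5 and 68.2 against 888 and 1764 and 78.8 and 59.8 against 1719 and 2280.3, and Myb 191 and 95.1 against 2119 and 1030.1. Gata3, a factor required for luminal fate, differed by -0.87 ± 0.21 at 1706 and 2239.5 against 3319.6 and 3835, so all 4 arrays were well above the minimum, and its call was lost without basal array 1 or luminal array 2, where the adjusted p reached 0.0993. Sox9 was higher in luminal cells at 1795 and 2121 against 2941 and 4689, a call lost without basal array 1, where the adjusted p reached 0.088. Tfap2c ran against the list, 4.82-fold higher in basal cells at 2009 and 2501 against 425 and 509, as did Cebpb at 1858 and 2847 against 566 and 1009, the latter lost without basal array 2, where the adjusted p reached 0.0578. Klf5, Grhl2 and Tfap2a were not called, at 2064 against 1905, 941 against 1052 and 1114 against 1175. Without basal array 2 the count higher in basal cells was 1.

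Luminal cells comprise a hormone-sensing and a secretory branch, and genes of both were among those higher in the luminal arrays. Of 15 hormone-sensing genes, 11 were higher in luminal cells and 0 in basal cells (median -2.43, floored -1.83). Next to Esr1, Pgr, Foxa1, Cited1 and Areg these included Wnt4, a signal that progesterone induces, at 208 and 202 against 2656 and 2250.5, and the surface protein Prom1 at 37 against 838. Tnfsf11 (RANKL), also induced by progesterone, measured 359 and 321 in basal cells and 4929 and 294 in luminal cells. It was high on luminal array 1 alone and was not called. Of 11 progenitor genes of the secretory branch, 6 were higher in luminal cells, with 160.1 and 61.4 against 1738 and 2013 for the receptor Kit, 48.7 and 71.8 against 1192 and 1270.5 for Cd14 and 46.6 and 31.6 against 1648 and 915 for lactoferrin Ltf. Itgb3 and Itga2, integrins used to sort luminal progenitors, were instead higher in basal cells at 481 and 437 against 83.6 and 139 and 1087 and 1244 against 377 and 359.7. Of 7 milk protein genes 3 were higher in luminal cells, with Wfdc18 at 437 and 236 against 5493 and 4675, and without basal array 2 or luminal array 1 the count was 1. Csn2, beta casein, was at 168 against 256 and was not called, and of 13 milk fat genes 4 were higher in luminal cells, or 2 without basal array 2.

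Wnt signalling genes were mostly higher in basal cells. Wnt ligands bind Frizzled receptors, R-spondin receptors of the Lgr family raise the response, and secreted inhibitors of the Sfrp, Dkk and Wif families bind the ligands or receptors. Of 44 genes tested, 27 were higher in basal cells and 4 in luminal cells, with a median difference of 1.18 (floored 1.13). Among receptors 13 of 19 were higher in basal cells, with Lgr5, a stem cell marker in several epithelia, at 3329 and 3649 against 38.6 and 146 (at least 23.2-fold higher), Fzd7 at 4358 against 502 and Lgr6 at 3141 and 2125 against 567 and 792. Of 10 ligands 4 were higher in basal cells and 2 in luminal cells. Wnt10a, Wnt11 and Wnt6 were higher in basal cells at 759 against 87.9, 578 against 65.3 and 753 against 239, and Wnt4 and Wnt7b in luminal cells at 208 and 202 against 2656 and 2250.5 and 49.2 and 30.7 against 381 and 482. Of 10 secreted inhibitors on the array 6 were tested, and 4 of these were higher in basal cells, with Wif1 at 2545 and 3906 against 64.5 and 74.1, Sostdc1 at 2394 and 1430.4 against 45 and 43.9, Dkk3 at 1159.7 and 1856 against 42.5 and 35.5 and Sfrp1 at 1348 against 48.2. Among the WT arrays these 4 reached the minimum on basal arrays only, so the count follows in part from the filter.

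The intracellular feedback inhibitor Nkd1 measured 2110.5 and 1768 against 33.7 and 26.8 (at least 12.9-fold higher in basal cells), and Nkd2 and Dact1 went with it at 705 against 29.1 and 708 against 28.5. Axin2, the common reporter of the pathway, was higher in basal cells at 282 and 199 against 135 and 136, a call lost without basal array 1, luminal array 1 or luminal array 2, where the adjusted p reached 0.203. Beta-catenin, Ctnnb1, did not pass the test at 3748 ± 103 against 3508 ± 52.4 (difference 0.10 ± 0.11). Fzd4 and Fzd6 were higher in luminal cells at 301 and 303 against 462 and 576 and 620.4 against 972. Those calls were lost without basal array 1, basal array 2 or luminal array 2, where the adjusted p reached 0.0567 for Fzd4 and without basal array 1, basal array 2, luminal array 1 or luminal array 2, where the adjusted p reached 0.143 for Fzd6, and the count of Wnt genes higher in luminal cells was then 2 without basal array 1 or basal array 2.

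Of 27 FGF signalling genes, 14 were higher in basal cells and 1 in luminal cells, with a median difference of 0.87 (floored 0.54). Fgfr2, the receptor for FGFs from the stroma, measured 2390.0 and 2589 in basal cells and 2837 and 5682 in luminal cells. The difference of -0.69 ± 0.33 did not pass the test (adjusted p = 0.153). Every luminal array was above both basal arrays, as for 4911 of the 12472 genes tested. Fgfr1 measured 3337 and 3525 against 1354 and 2584 and Fgfrl1, a receptor without a kinase, 1479 and 1945 against 499.5 and 593, both higher in basal cells. The call of Fgfr1 was lost without basal array 1, basal array 2 or luminal array 1, where the adjusted p reached 0.162. The feedback inhibitors and targets of the pathway were higher in basal cells for 8 of 9 genes, with Dusp6 at 6059 and 6418 against 1968 and 1777, Spry1 at 1170.4 and 1142 against 452 and 221, Spry2 at 771 and 1078 against 270.4 and 337 and Etv5 at 1956 and 933 against 389.9 and 155, the last lost without basal array 1, where the adjusted p reached 0.0564. Of 13 ligands, Fgf1 (1424 and 1833 against 320.0 and 328) and Fgf2 (429.7 against 22.2) were higher in basal cells. Fgf13, which acts inside the cell, was higher in luminal cells at 65.2 and 49.1 against 211 and 182, a call lost without basal array 1, basal array 2, luminal array 1 or luminal array 2, where the adjusted p reached 0.128. Without basal array 1 or luminal array 1 the count higher in basal cells was 9 for the whole list, and for feedback inhibitors and targets it was 5 or 6.

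The ErbB receptors were split between the layers, as the plot of signalling genes by array shows. Egfr measured 2026 ± 174 against 343 ± 16.3 (basal against luminal), 5.89-fold higher in basal cells. Erbb2 measured 521 and 496 in basal cells and 2359 and 2157 in luminal cells and Erbb3, its partner without kinase activity, 267 and 284 in basal cells and 4660.4 and 4006 in luminal cells, which is 4.44-fold and 15.7-fold higher in luminal cells. Erbb4 was also higher in luminal cells at 41.9 against 312. Of 8 ligands 2 were higher in basal cells and 5 in luminal cells, and the basal count was 1 without basal array 1, luminal array 1 or luminal array 2. Nrg1, a ligand of ERBB3 and ERBB4, measured 3952 and 1358 against 34.8 and 31.4 and was higher in basal cells, with basal array 1 well above basal array 2. Areg and Btc, ligands of EGFR, were higher in luminal cells at 89.9 against 4166 and 58.7 against 562. Adam10, a sheddase, was 4.77-fold higher in luminal cells at 794 and 777 against 3939.5 and 3571, and Lrig1, which lowers ErbB receptors, 2.88-fold higher in basal cells at 1374 and 1475 against 414 and 591. In all 10 of 16 genes were higher in luminal cells and 5 in basal cells (median -1.48, floored -0.91), and without basal array 1 or luminal array 1 the basal count was 3.

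Of 4 Notch ligands 3 were higher in basal cells, and of 4 receptors 1 was higher in luminal cells. Notch receptors are cut on contact with Delta or Jagged on a neighbouring cell, and Hes genes are their targets. Dll1 measured 1671 and 2514 against 21.5 and 22, Jag2 2069.8 and 2327 against 25.3 and 50.9 and Jag1 2132 and 2063 against 757 and 918, at least 13.7-fold, at least 14.6-fold and 2.51-fold higher in basal cells. Notch3 measured 114 and 112 against 1247 and 959 (at least 7.29-fold higher in luminal cells), while Notch1 and Notch2 did not pass the test at 1046 against 1605 and 748 against 721. With the replicate block Notch1 passed it, higher in luminal cells (adjusted p = 0.0334), which made 2 receptors. Hes6 measured 189.6 and 245 against 901 and 624 and Hes1 696 and 939.5 against 1524 and 2549, both higher in luminal cells, and the call of Hes1 was lost without basal array 1, basal array 2 or luminal array 2, where the adjusted p reached 0.168. Rbpj, the DNA-binding factor of the pathway, and Lfng, which modifies the receptors, were higher in basal cells at 1308 against 735 and 888 against 443. Of 20 genes tested 6 were higher in basal cells and 4 in luminal cells, and without basal array 1 or luminal array 2 the luminal count was 2. These are 30% and 20%, against 15.5% and 18.3% of all genes tested.

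**Figure D4:**
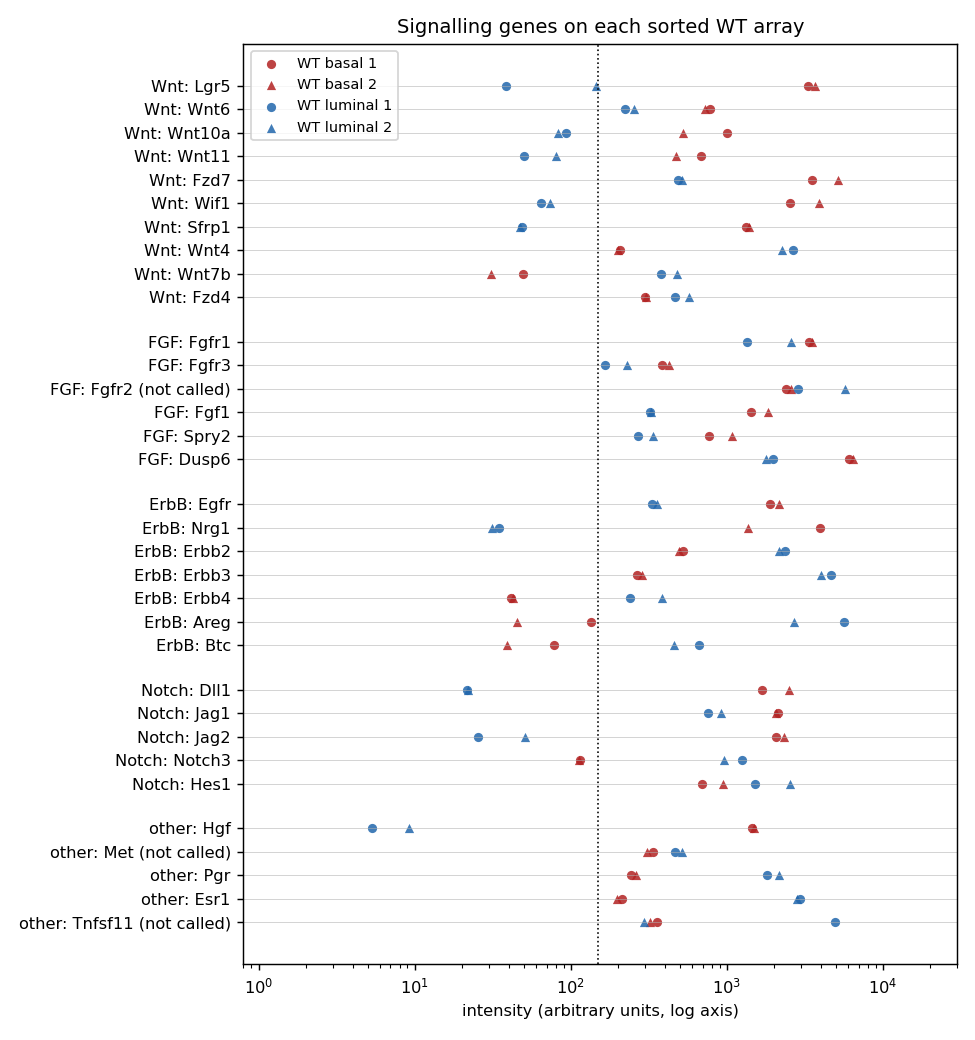
Intensity (log axis, arbitrary units) of signalling genes on each of the 4 WT arrays, basal in red and luminal in blue, circle for array 1 and triangle for array 2, grouped by pathway. The dotted line is the minimum of 150, and genes that did not pass the test are marked. Lgr5, Egfr, Nrg1, Dll1, Jag2 and Hgf are higher on both basal arrays, and Wnt4, Erbb2, Erbb3, Areg, Notch3, Pgr and Esr1 on both luminal arrays. Tnfsf11 is high on luminal array 1 alone.

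Of 34 genes of the TGF-beta and BMP pathways 14 were higher in basal cells and 3 in luminal cells (median 0.37). Bmp7, a ligand, measured 3218 and 1886 against 44.2 and 64.4, and the co-receptor Tgfbr3 4419 and 3635 against 152 and 178 (24.4-fold higher). Of 12 inhibitors and targets 7 were higher in basal cells and 1 in luminal cells, with Fst at 5055 and 6326 against 73.8 and 71.4 and Fstl1 at 3159 and 3523 against 36.4 and 55.3. Inhbb, a subunit of activin B, which follistatin binds, was at least 6.42-fold higher in luminal cells, and Tgfb1 was too at 524 and 460.4 against 1172 and 925. Id3 was higher in luminal cells at 199 and 358 against 664 and 666, in contrast to Id4, and its call was lost without basal array 1, luminal array 1 or luminal array 2, where the adjusted p reached 0.224. It was the inhibitor or target higher in luminal cells, and with the replicate block it was not called (adjusted p = 0.0621).

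Axon guidance genes, many of which also act in epithelia, were higher in basal cells for 25 of 39 tested, with 1 higher in luminal cells (median 1.28, floored 1.15). Slit2, Slit3, Robo1 and Robo2 were all higher in basal cells, with Slit3 at 1133 and 833 against 18.3 and 27.7. The semaphorins Sema6d, Sema3c and Sema5a measured 2189.5 and 2199.8 against 25.7 and 39.8, 1377 and 1832 against 66.5 and 29.7 and 1151 and 1850.4 against 33 and 51.5, and 9 of 14 ephrin and Eph genes were higher in basal cells, with Epha4 at 1414 and 1439 against 193 and 235. Ntn1, netrin 1, was the gene higher in luminal cells at 140.2 and 90.6 against 627 and 551, while its receptor Neo1 was higher in basal cells at 2002 against 1011.

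Of the other secreted signals and receptors, ligands were higher in basal cells for 13 of 15 tested, with 0 higher in luminal cells, and receptors for 4 of 10. Hgf, a growth factor for epithelia, measured 1455 and 1488 against 5.36 and 9.23, and its receptor Met 336 and 308 against 464 and 513, which was not called (adjusted p = 0.118) but was with the replicate block (adjusted p = 0.0273). The chemokines Cxcl14 and Ccl2 measured 4762 and 5705 against 33.8 and 50.5 and 1187 and 1711 against 63.1 and 72.9, the cytokine Il17b 3554 and 4254 against 34.1 and 34.3, and the insulin-like growth factor binding protein Igfbp3 4277 and 3092 against 15.2 and 26.7. Il17b had the smallest adjusted p of the list in limma (6.15e-06). Its luminal values were both under the minimum, so their closeness has no meaning as a level.

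Neither Clim gene was called between the layers. Ldb1, which encodes Clim2, measured 2575 and 3787 in basal cells and 3464 and 3714 in luminal cells (difference -0.20 ± 0.18, adjusted p = 0.449), and the arrays overlapped. Ldb2, which encodes Clim1, was under 150 on all 4 arrays at 139 and 119 against 67.8 and 102. LIM-only proteins, which the Clims bind, did differ. Lmo1 measured 732 and 1037 against 8.31 and 9.46 and Lmo4 2559 and 2753 against 944 and 1044 (difference 1.42 ± 0.21, adjusted p = 0.00255), both higher in basal cells, while Lmo2 was near the minimum at 116 against 148. Of the single-stranded DNA-binding partners of the complex, Ssbp2 was 3.75-fold higher in basal cells at 2655 and 2732 against 479 and 1076 and Ssbp4 2.55-fold higher in luminal cells at 400.3 and 266 against 781 and 887. Ssbp3 was higher in basal cells at 1396 and 1823 against 945 and 1041, a call lost without basal array 2 or luminal array 1, where the adjusted p reached 0.0923. The 4 LIM homeodomain genes tested, Lhx4, Lhx6, Lhx8 and Lmx1b, were not called.

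Of 17 genes linked to basal stem cells 9 were higher in basal cells and 1, Sox9, in luminal cells. Besides Lgr5, Lgr6, Id4, Snai2 and Dll1 these included Bcl11b at 819 and 902 against 164 and 189. Procr, used to mark multipotent basal cells, was at 147 and 232 against 30.9 and 66.7 and was not called (adjusted p = 0.0638). It was called with the replicate block (adjusted p = 0.0431). Every basal array of Procr was above both luminal arrays, as for 3663 of the 12472 genes tested. The call of Sox9 was lost without basal array 1, where the adjusted p reached 0.088.

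Ion channels were called in both directions. Of 14 calcium channel and transporter genes, 10 were higher in basal cells, with Cacna1g at 3647 and 5980.3 against 100.5 and 91.1, Cacna2d1 at 3805 and 2726 against 30 and 27.9 and Cacng7 at 1806 and 2179 against 110.3 and 122, and 2 were higher in luminal cells, a count of 0 without basal array 2 or luminal array 1 and of 1 without either other array. Of 7 sodium and chloride genes 4 were higher in luminal cells, or 2 without either basal array, and 2 in basal cells, or 1 without basal array 2 or either luminal array, with the sodium-potassium-chloride cotransporter Slc12a2 at 655 and 543 against 5709 and 8868 and the sodium channel subunit Scnn1a at 103 against 1601. Scn7a was higher in basal cells at 5035 and 7212 against 28.8 and 42.7. Over all 32 channel genes 16 were higher in basal and 9 in luminal cells, and the luminal count fell to 4 without basal array 2 and to 5 without basal array 1 or luminal array 1.

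Cell cycle genes gave 1 call of 36 tested, against 33.8% of all genes, and 3 in each direction with the replicate block. The 1 gene was Ccnd2, a cyclin that is expressed outside division as well, at 3297 and 2528 against 47 and 57.1. Mki67 and Top2a measured 745 against 549 and 400.0 against 347. Ccnd1, the cyclin required for alveolar growth, measured 2182 and 350.0 in basal cells and 4046 and 3666 in luminal cells and was not called (adjusted p = 0.086), while it was with the replicate block (adjusted p = 0.0335), with basal array 2 far below basal array 1. Immediate early and heat shock genes, which dissociation can induce, gave 6 calls in each direction of 25 tested. That is 24% each, near the 15.5% (basal) and 18.3% (luminal) over all genes, so the counts are no result about the list. Fos, Egr1 and Hspa1a were at 4373 against 7546, 5187 against 5068 and 3036 against 3423, so they were high in both layers. Egr3 and Fosl1 were higher in basal cells at 1213 and 1146 against 181 and 197 and 956 and 950.2 against 161 and 199, and Atf3 and Klf6 in luminal cells at 4545 and 4277 against 8522 and 9303 and 2081 and 2167 against 6392 and 4850.1. The call of Fos was lost without basal array 1, luminal array 1 or luminal array 2, where the adjusted p reached 0.107, and the luminal count of the list fell to 2 without basal array 1 and to 3 without luminal array 2.

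Genes of epidermal differentiation gave 5 calls in favour of luminal cells and 1 in favour of basal cells among 15 tested. Sprr1a, a cornified envelope protein, measured 106 and 78 against 2307 and 3802, and Tgm1 659.6 and 817 against 1917 and 1369.8, a call lost without basal array 1, basal array 2 or luminal array 1, where the adjusted p reached 0.111. Sfn (14-3-3 sigma) was higher in basal cells at 6219 and 6244 against 2731 and 3173. Without basal array 2 the luminal count was 1, without luminal array 2 it was 2 and without basal array 1 it was 3, and with the replicate block it was 8. Genes of antigen processing for MHC class I were higher in luminal cells for 4 of 6, with Psmb9 at 245 and 141 against 402 and 631 and Tap2 at 451 and 296 against 839.7 and 877. Those calls were lost without basal array 2 or luminal array 2, where the adjusted p reached 0.0621 for Psmb9 and without basal array 2 or luminal array 2, where the adjusted p reached 0.0775 for Tap2, and the count was 0 without basal array 2 or luminal array 2.

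Markers of lymphocytes, macrophages, red blood cells and adipocytes were mostly under 150 on all 4 arrays. Those of endothelial and of nerve and Schwann cells mostly were not. Lymphocyte markers were under 150 on all 4 arrays for 9 of 10 genes, and their summed intensity ranged from 647 to 694. Macrophage markers were under 150 for 11 of 13 genes and the 2 red blood cell markers on all 4 arrays. Cd68, the 1 macrophage marker called of 6 tested, was higher in basal cells at 356 and 384 against 148 and 205, a call lost without basal array 1, basal array 2 or luminal array 1, where the adjusted p reached 0.118. The summed intensity of 14 endothelial markers was 2455 and 2388 on the basal and 4006 and 2796 on the luminal arrays, with 4 under 150 on all 4 arrays. Of these 14, 1 was higher in basal cells and 2 in luminal cells, and the counts were 0 and 1 without basal array 1 or basal array 2. The basal call, Esam (204 and 187 against 45.1 and 71.6), was lost without basal array 1, basal array 2, luminal array 1 or luminal array 2, where the adjusted p reached 0.179, and with the replicate block (adjusted p = 0.0611). Pecam1, the CD31 of the lineage gate, measured 154 and 177 against 58.5 and 109. Vwf and Eng were the 2 genes higher in luminal cells, at 122 and 129 against 1925 and 414 and 377 and 429 against 1275 and 1141, while Kdr, Tie1 and Cdh5 were at 78.3 against 40.9, 102 against 74.5 and 231 against 72.3. The call of Vwf was lost without basal array 1 or basal array 2, where the adjusted p reached 0.0597, and luminal array 1 was well above luminal array 2. Of 4 pericyte markers tested, Mcam (1179.5 and 2079 against 205 and 245), Pdgfrb and Rgs5 (187 and 223 against 22.7 and 49.9) were higher in basal cells and Notch3 in luminal cells. Adipocyte markers gave 1 call of 6, Lipe, higher in luminal cells at 326 and 408 against 1128 and 1730.3. The 8 nerve and Schwann cell markers summed to 7813 and 8911 on the basal and 1578 and 2188 on the luminal arrays, and 3 of 6 tested were higher in basal cells. Among them Pmp22, also a gene of epithelia, was 20.1-fold higher in basal cells at 5059 and 6095 against 154 and 492. The others were Sox10 at 1516 and 1820 against 601 and 835 and Ncam1 at 367 and 292 against 123 and 106. The call of Sox10 was lost without basal array 2 or luminal array 1. S100b and Mbp were at 232 against 221 and 274 against 303. The part of such cells in the results was not tested.

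Of 26 listed microRNA genes on the array, 5 had a probe set past the minimum. Of these, 4 were called higher in basal cells, against 15.5% of all genes tested. Among the WT arrays these 4 reached the minimum on basal arrays only. The count therefore follows in part from the filter and is no result about microRNA genes as a group. Probe sets of the array read the precursor transcript, and the mature form was not measured. Mir145a measured 837 and 562 against 26.5 and 26.1 and Mir143 472 and 324 against 53.2 and 50.5, the pair known from smooth muscle. Mir205, known from basal and stratified epithelia, measured 172 and 93.4 against 15.8 and 19.1, and Mir99a 179 and 152 against 60.3 and 61.6, so both were near the minimum in basal cells and under it in luminal cells. With values under 150 set to 150, neither of these 2 passed the test. Mir210, a gene of the hypoxia response, was not called at 341 ± 8 against 314 ± 1.09 (difference 0.12 ± 0.13). The main mature products of Mir205 and Mir99a are shown from RefSeq (GRCm38.p6) with the seed, bases 2 to 8, in capitals, because the seed sets which transcripts they can pair with. They lie at chr1:193507503-193507524 (minus strand) and at chr16:77598940-77598961 (plus strand), and the seeds differ, so the 2 belong to different seed families.
miR-205-5p: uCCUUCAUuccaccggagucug
miR-99a-5p: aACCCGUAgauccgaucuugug

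Genes with several probe sets allow a comparison on the same arrays, where probe sets are not independent replicates. Hmcn1 had 76 probe sets past the minimum, and all 76 were called higher in basal cells, with fitted differences from 2.85 to 8.89 and a median of 5.34, not floored. Its main probe set was under the minimum in luminal cells at 82 and 76.3. Probe sets of this gene could thus pass the minimum through basal arrays, and the count of 76 follows in part from the filter. Chd7, a chromatin remodeller, had 30, of which 30 were above 0 and 21 were called, with differences from 0.45 to 1.06. The call of Chd7 at 1585 and 1585 against 1054 and 713 was lost without basal array 1, basal array 2 or luminal array 2, where the adjusted p reached 0.11. 4932438A13Rik had 19, all above 0 from 0.24 to 0.68 and with 0 called. Over the 695 genes with 2 or more probe sets, 1, Ppp1r12b, had probe sets called in opposite directions, and it is not called by its main probe set at 341 against 419.

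Finally, the difference between the layers was compared with that in DN-Clim mice. In DN-Clim cells 3761 genes were called (30.2%), of which 3068 were called in the same direction in WT, or 72.8% of the WT calls and 81.6% of the DN-Clim calls, and 2 genes were called in opposite directions. The difference between genotypes was called for 6 genes (0.0481%), and 607 had an unadjusted p under 0.05. When no gene differs, a share of 0.05 of the genes has such a p, and 607 of 12472 is not above that share. With the replicate block 1 of the 6 remained, Cacng7 (adjusted p = 0.0495), and 2 genes were called with quantile normalization or with arrays at a common mean and variance. Of the 6, Cacng7, Wif1, Wfikkn2, Lrrc4c and Nlgn1 were called higher in basal cells in WT mice, with a smaller difference in DN-Clim mice. Cacng7, a calcium channel subunit, measured 1806 and 2179 in WT basal cells and 137 and 145 in DN-Clim basal cells, with 110 to 152 on the 4 luminal arrays. Wif1 measured 2545 and 3906 in WT basal cells and 194 and 244 in DN-Clim basal cells. Tmprss11a, a membrane protease, measured 958 and 1666 in DN-Clim luminal cells and 25.8 to 45.1 on the 6 other arrays, so it was tested for its level in DN-Clim luminal cells alone. The count of 6 was 0 without WT basal array 2 or either DN-Clim basal array, 2 without either DN-Clim luminal array and 3 without WT luminal array 1. The SD of the differences over all genes was 1.36 in WT and 1.23 in DN-Clim cells.

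**Figure D5:**
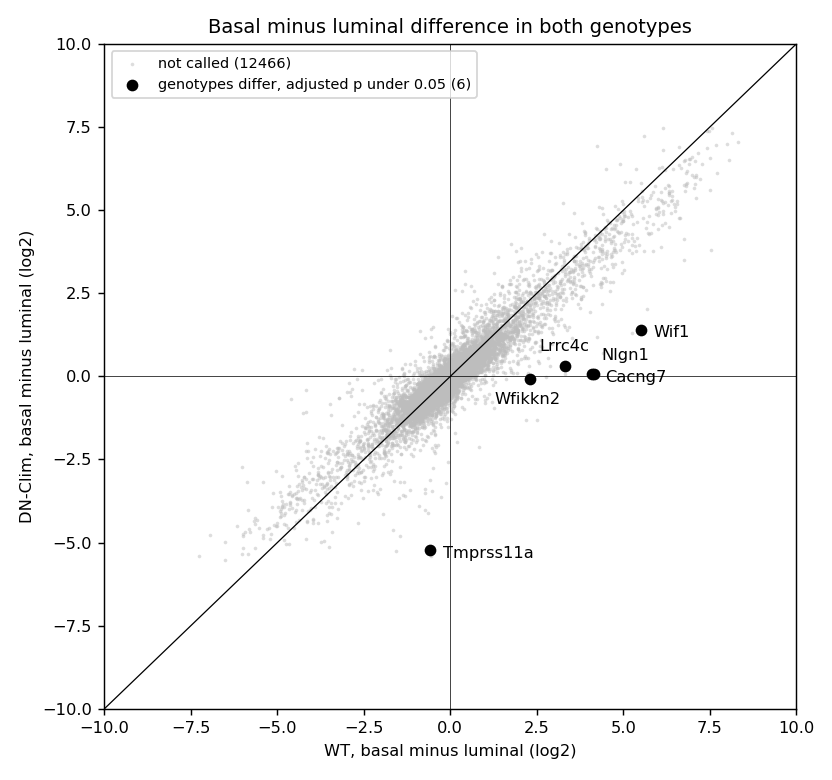
Basal minus luminal difference (log2) in WT cells on the x axis and in DN-Clim cells on the y axis for the 12472 genes tested. Black points are the 6 genes whose difference was called between genotypes, and the line marks equal differences. Cacng7, Wif1, Wfikkn2, Lrrc4c and Nlgn1 lie right of the line, with DN-Clim differences nearer 0, and Tmprss11a lies at the bottom, with a WT difference near 0.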

How the data were processed

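RNA of each sorted sample was hybridised to 1 Affymetrix Mouse Gene 1.0 ST array, and the authors summarised each probe set with PLIER into the deposited intensity. The deposited values are linear, before the log2 transformation and the centring to a common mean and variance that the methods describe, and no PLIER version or background correction is given in the sources used here. The table holds 35557 probe sets on 50 arrays, of which 21789 have 1 gene symbol in the platform annotation, 1621 several and 12147 none. Median intensities of the 8 sorted arrays lay between 119 and 130. Only genes with 1 symbol were tested, each by the probe set with the highest mean.

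Values under 1 were set to 1 and taken to log2. The 8 sorted arrays, as 4 groups of 2, were fitted in 1 model with limma 3.58.1 (R 4.3.3, eBayes with a variance trend), and p-values, which are two-sided, were adjusted by Benjamini-Hochberg over all genes tested. The methods name 2 littermates per genotype as replicates, and deviations of samples with the same replicate number correlated at 0.289 in WT and 0.221 in DN-Clim over all genes. The small number of arrays limits the precision. The study's own test, Cyber-T, was run as an alternative, as were other scalings, floors, filters and the leaving out of each array.

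The genes named include the 15 with the largest called difference in each direction, taken from genes whose basal and luminal arrays did not overlap. The markers and the genes named by the study were added. Each list gave up to 6 called members with the largest difference and up to 3 against the list's direction. The genes called between genotypes and the 3 genes with most probe sets complete them. Other list members in the text were chosen after their values were seen. The gene lists and the samples compared were chosen with earlier results of these data known. Promoter and microRNA sequences are from RefSeq. The sources disagree on the RNA extraction kit and give slightly different ages for sorted mice.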

Additional observations from a re-analysis of the deposited data

Results flagged for a closer look

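The difference between basal and luminal cells was itself different between DN-Clim and WT mice for 6 genes in limma (adjusted p from 0.0109 to 0.0422). With the replicate block 1 of these was called, Cacng7 (adjusted p = 0.0495), and the others had adjusted p from 0.0725 to 0.208. As fitted, DN-Clim minus WT on the log2 scale, it was -4.035 for Cacng7, -4.101 for Wif1, -2.381 for Wfikkn2, -2.981 for Lrrc4c, -4.108 for Nlgn1 and -4.658 for Tmprss11a. For 5 of the 6 the value rests in part on arrays under 150, and with values under 150 set to 150 it was -3.73, -3.86, -2.38, -1.66, -2.57 and -3.07 in the same order, where Nlgn1 and Tmprss11a were not called (adjusted p = 0.0801 and 0.0511). Wfikkn2 measured 733 and 874 in WT basal cells and 193 and 194 in DN-Clim basal cells. Lrrc4c measured 505 and 442 in WT basal cells and 70.4 and 65.2 in DN-Clim basal cells. Nlgn1, a synaptic adhesion protein, measured 1159 and 681 in WT basal cells and 63.4 and 52.6 in DN-Clim basal cells.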

How the results depend on the processing

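The count of 1934 genes higher in basal and 2283 higher in luminal cells ranged from 1353 to 1915 and from 1352 to 2161 when 1 array was left out, lowest for luminal calls without WT basal array 2. Leaving out WT basal array 1 gave 1414 luminal calls. The study's sources give an unadjusted p under 0.001 or under 0.01, each with a 1.5-fold difference. With Cyber-T 1573 and 1484 genes passed the first and 2043 and 2282 the second, which was chosen after seeing the data, and with limma 1107 and 866 passed the first. Over the settings tried, the share of calls higher in basal cells lay between 44.4% and 56.1%, and the median difference of all genes between -0.05 and -0.10. The genes called for the difference between genotypes numbered 2 with quantile normalization, 2 with arrays at a common mean and variance, 2 with a minimum of 300 and 15 with values under 150 set to 150, and 0 to 5 when 1 array was left out. Of 181 named genes called, 36 lost the call in any of 19 settings and 0 changed direction. Most of the 181 were picked for the largest differences of all genes or within a list, so their share of lost calls does not hold for other called genes. Ldb1, which was not called, had differences from -0.4784 to 0.07837 when 1 array was left out, above 0 without WT basal array 1. Genes under 150 in both layers, such as Ldb2, gave no value with that floor. The causes were not tested.

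The replicates were littermates, but no source says that a number marks the same mouse in basal and luminal samples. With a replicate block as a fixed term 2064 and 2481 genes were called and 1 between genotypes, and with a random block 2218, 2780 and 7. Among the genes and list counts given in the text, the fixed block changed no other call than those named there, and moved no other count by over 1.5 times.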

Other observations

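Gene families chosen after their values were seen showed differences outside the lists. Their counts stand beside shares of 18.3% (luminal) and 15.5% (basal) over all genes tested. In luminal cells, 28 of 76 mitochondrial ribosomal protein genes were higher, and 0 were higher in basal cells (median difference -0.52, against -0.09 over all genes). Subunits of the vacuolar proton pump, the V-ATPase, were higher in luminal cells for 11 of 17 (median -0.73), the peroxins for 6 of 13 and the ESCRT-III membrane remodelling genes for 6 of 10. Cytosolic ribosomal proteins gave 1 call of 62. Mucins were higher in luminal cells for 6 of 7 (median -3.83, or -1.82 with values under 150 set to 150). In basal cells, 10 of 11 serpins, 9 of 12 ADAMTS proteases and 6 of 6 beta protocadherins were higher, with medians of 3.56, 1.73 and 2.09, or 8, 7 and 5 genes and 1.98, 1.20 and 0.48 with values under 150 set to 150. Members low in luminal cells could be tested only through other arrays. Such counts, above all that of the beta protocadherins, therefore follow in part from the filter.

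Some called genes were neighbours in the genome. In RefSeq order, 22 runs of at least 5 consecutive tested genes were called in 1 direction, 3 higher in basal and 19 in luminal cells. Over all genes tested 15.5% were called higher in basal and 18.3% in luminal cells. Such shares give some runs without any grouping, and their number was not computed. Erbb2 lay in the run Stard3, Pgap3, Erbb2, Mien1 and Grb7, higher in luminal cells, and occludin beside Naip2, Naip5, Naip6 and Marveld2, although 0 of the 3 Naip genes were called with values under 150 set to 150. Dkk3, Mical2, Micalcl, Parva and Tead1 formed a run higher in basal cells.

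Replicates of 1 cell type disagreed at single genes. With values under 150 set to 150, the 2 arrays differed over 4-fold for 16 genes in WT basal and 55 in WT luminal cells. The largest such difference was that of Cdcp3 in luminal cells, at 16700 and 179. WT luminal array 1 was at least 8-fold above every other sorted array for 7 genes, Aldh3a1, Wfdc3, Hsd11b2, Cd33, Sftpd, Defb1 and Tnfsf11, while WT luminal array 2 was so for 1, Htr4, and the other 6 arrays for 0. In WT basal cells Glycam1 measured 91.1 and 5081 and Cxcl13 57 and 1521, so both were high on basal array 2. The source of these transcripts was not tested.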
